A study of Mus musculus with 20 samples.

Results

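Voltage-gated sodium, calcium and potassium channel genes were described in cultured cerebellar granule neurons of the mouse, the small excitatory cells of the granule layer. The genes were chosen by symbol alone: the Scn sodium channel alpha and beta genes, the Cacna1 pore genes with their Cacnb and Cacna2d subunits, the Kcna, Kcnb, Kcnc, Kcnq and Kcnh potassium channel genes, and the Hcn genes of the pacemaker current. Of 24411 genes counted, 62 matched, and 55 of these passed the filter on low counts that left 15284 genes for testing. RNA sequencing had been made from 20 libraries in 4 groups of 5. Control cultures were compared with cultures given an shRNA against mouse Kdm6b, a histone demethylase that removes methyl marks from lysine 27 of histone H3, to ask what its enzymatic domain contributes. The other groups received the same shRNA together with a human Kdm6b enzymatic domain, either active (labelled Cat Rescue, here the active domain) or enzymatically dead (labelled dCat Rescue, here the dead domain). Infection was on day 1 in vitro, the antimitotic AraC was added on day 2, and RNA was taken on day 7; the labels do not give what the control cultures were infected with. Nor do they tie a library to a culture or animal of its own, and p-values therefore cover only the spread among these libraries.

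Voltage-gated channels open or close with the membrane potential. Sodium channels carry the upstroke of the action potential, calcium channels couple it to transmitter release and to signals inside the cell, and potassium channels repolarise the membrane and set the firing threshold. Each pore gene works with auxiliary subunits that set its amount at the membrane and its speed, and granule neurons acquire much of their set of channels while they mature after birth.

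The libraries held between 14200745 and 21179300 estimated counts, and the channel genes took 0.141 to 0.569% of them. Granule neuron markers were present in all libraries, with none of 12 at 0 and a summed level of 2153 to 9619 CPM (counts scaled to a common library size with TMM factors). Of 8 Purkinje cell markers Pcp2 was at 0 in all 20 libraries, while the 8 summed to 176 to 496 CPM, most of it Gad1, Rora and Itpr1. The 4 libraries numbered 4, 1 in each group, stood apart: their summed granule neuron level was 2153 to 3515 CPM against 5410 to 9619 CPM in the others, and their summed astrocyte level, over 8 markers, was 11778 to 15466 CPM against 2155 to 7045 CPM. The libraries numbered 5 also differed. Their summed fibroblast and meninges level, over 6 markers, was 18217 to 23838 CPM against 3295 to 12617 CPM in the others. Their summed astrocyte level was the lowest of each group, at 2155 to 2779 CPM. Libraries of the same number deviated together from their group means, so the paired fit, which takes the number as a block, is given throughout. Kdm6b stood at 141, 171, 139, 81.2 and 187 CPM in control libraries 1 to 5 and at 99.4, 112, 89.3, 37.9 and 76.4 CPM in shKdm6b, lower in 5 of 5 pairs. The groups overlapped through control library 4, the exact permutation p was 0.0317 (0.190 adjusted over 6 comparisons), and the paired log2 fold change was -0.88 (adjusted p = 0.0231, edgeR). With the domains Kdm6b ran from 73.1 to 312 CPM (active) and from 54.8 to 271 CPM (dead); how far reads of the human domain are counted under this gene is not given in the sources used here.

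In control, the channel genes with the highest levels per length were Kcnc1, a Kv3 potassium channel of fast repolarisation, at 74.1 ± 31.2 CPM per kilobase of exon (SD, n = 5), Cacna1a, the pore of P/Q-type calcium channels, at 45.1 ± 14.7 and Kcna1, a low-threshold Kv1 channel, at 44.7 ± 19.1. The latter pair differed by less than their spread. Lower in the order lay the calcium channel beta subunits Cacnb3 and Cacnb4 at 20.5 ± 1.99 and 18.9 ± 9.10 CPM per kilobase, the sodium channel beta subunit Scn2b at 18.3 ± 6.27, Hcn2 at 17.3 ± 2.89, the sodium channel pore Scn2a1 at 17.1 ± 7.91 and the N-type calcium channel pore Cacna1b at 16.9 ± 7.58, each of them within the spread of its neighbour in this order. With the longest transcript as the length in place of all annotated exons the first 3 kept their order. The 7 genes that did not pass the filter, the retinal pore Cacna1f, the muscle pore Scn4a, the sensory neuron pore Scn10a and Kcna5, Kcna10, Kcnh4 and Kcnq1, had highest values of 0.0605 to 0.576 CPM over all libraries.

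**Figure D1:**
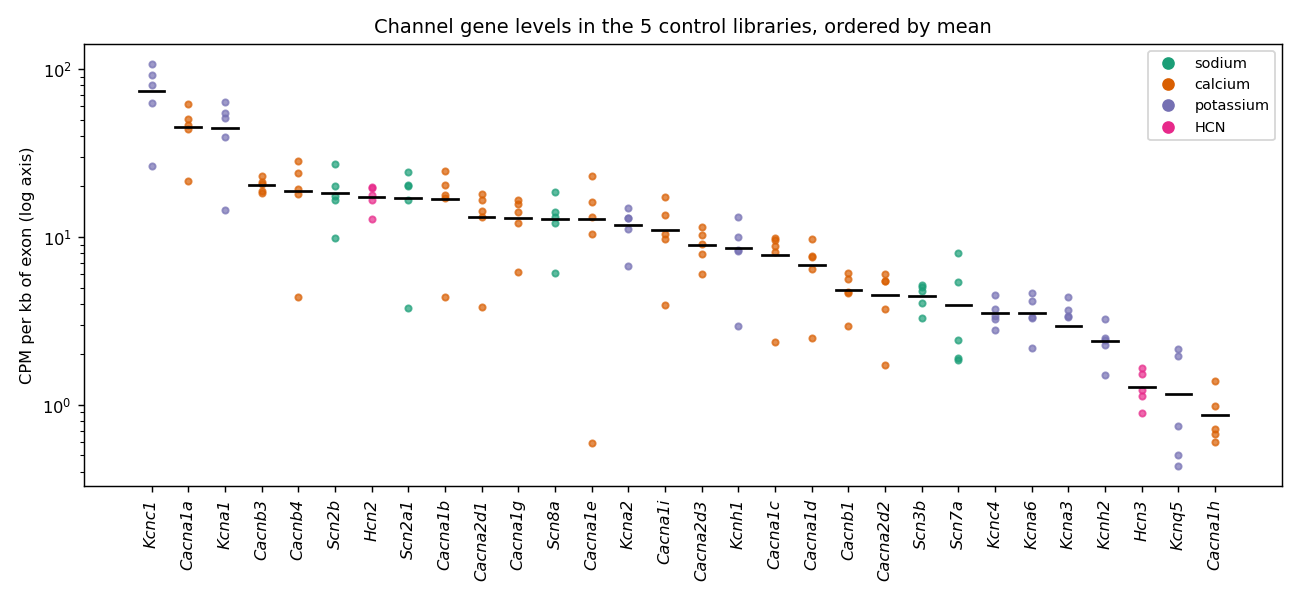
Level of 30 channel genes in control, ordered by mean, in CPM per kilobase of exon on a log axis; points are the 5 control libraries, bars their mean, colours the channel class. Kcnc1 leads at a mean of 74.1, and for most genes the lowest point is control library 4; 1 library at 0 for Kcna3 cannot be drawn on this axis.

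After the knockdown of Kdm6b, 6 potassium channel genes changed when libraries of the same number were taken as pairs, and none did by edgeR without the pairing. Kcnc4, Kcnq5 and Kcnh3 rose and Kcna1 and Kcnc1 were among the 3 that fell against control. By edgeR over all libraries no sodium, calcium or pacemaker channel gene passed. DESeq2 with the same pairing called 9 of 55 (6.18% of all genes), all 6 of these and 3 more, among them the calcium channel Cacna1i (adjusted p = 0.0221) and the sodium channel beta subunit Scn3b (adjusted p = 0.0492). In the paired fit 6 of 55 channel genes passed an adjusted p of 0.05 (edgeR's quasi-likelihood test, Benjamini-Hochberg adjustment over all genes), where 4.14% of all genes tested did; the 3 higher stand beside 1.72% of all genes and the 3 lower beside 2.41%. The genes that rose had control means of 2.72 to 12.9 CPM. Over all 55 the median log2 fold change was -0.10, against 0.01 over all genes tested, with 25 positive and 30 negative. An unadjusted p below 0.05 was reached by 19 of 55 (34.5%) against 14.9% of all genes, and all 5 pairs moved the same way for 8 genes upward and 11 downward (34.5% together) against 24.8% of all genes. Without the pairing edgeR called none of the 55 in any of the 6 comparisons. It called 0.00654% of all genes in shKdm6b against control and 0% in the other comparisons. In shKdm6b against control DESeq2 without pairing called Kcnc4 (adjusted p = 0.00459).

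**Figure D2:**
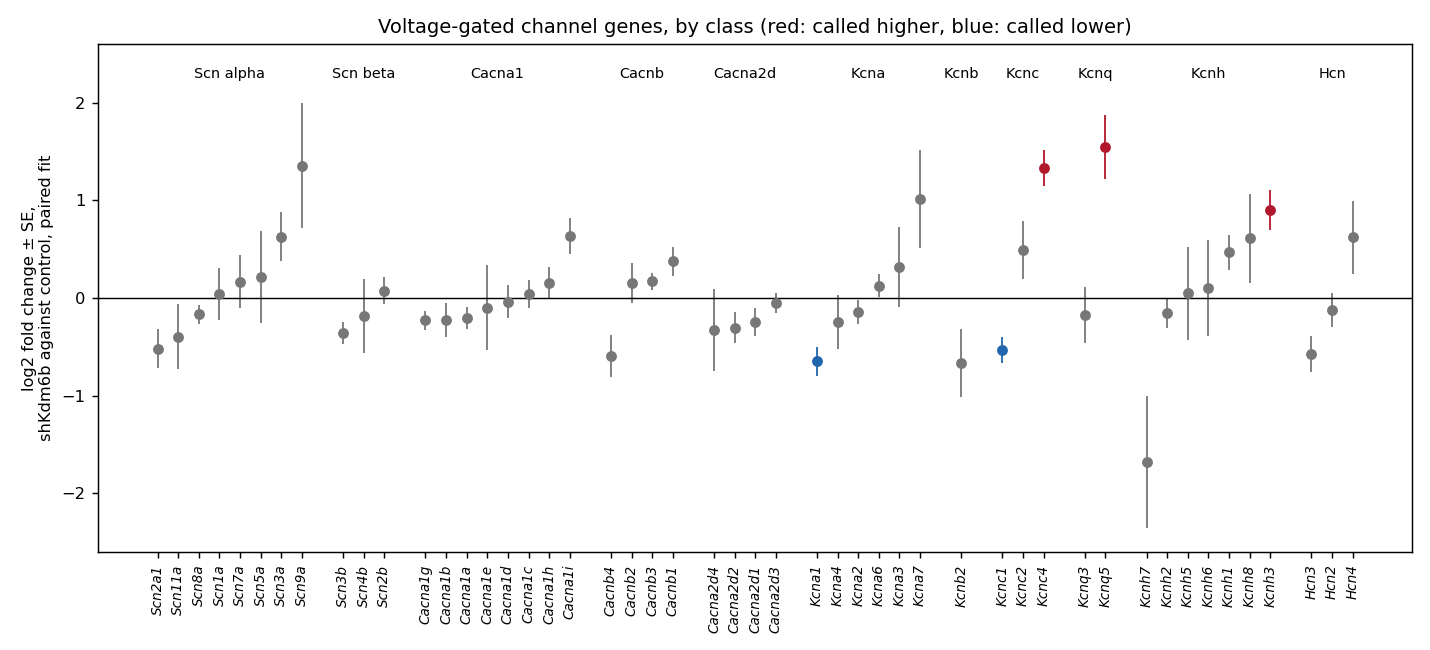
Log2 fold change with SE, shKdm6b against control in the paired fit, for 49 of the 55 channel genes tested, grouped by class and ordered within it. Red marks the 3 genes called higher (Kcnc4, Kcnq5, Kcnh3), blue marks Kcna1 and Kcnc1, called lower; all 5 lie in potassium channel classes, and the wide bars of Kcnh7 and Scn9a belong to genes of very low level.

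Within the Kv3 family, whose channels repolarise fast-spiking cells, 2 paralogs moved in opposite directions. Kcnc4, an inactivating Kv3 subunit, lies on the minus strand of chromosome 3 (107438303 to 107459552, GRCm38). It stood at 11.9, 16.6, 10.2, 12.3 and 13.7 CPM in control libraries 1 to 5 and at 46.0, 37.4, 17.96, 28.1 and 38.3 CPM in shKdm6b. The lowest shKdm6b library, number 3, was above the highest control library, so that the groups did not overlap. Its log2 fold change came to 1.33 ± 0.18 (SE; adjusted p = 0.000564), with pair differences of 0.81 to 1.95. Kcnc1, on the plus strand of chromosome 7 (46396497 to 46438704), stood at 877, 1015, 598, 249 and 765 CPM in control and at 775, 815, 433, 104 and 544 CPM in shKdm6b. Each shKdm6b library was below its control partner while the groups overlapped widely, and the log2 fold change was -0.53 ± 0.13 (adjusted p = 0.0301). The pair numbered 4 had the largest difference of Kcnc1, -1.27, against -0.49 to -0.18 in the others. Kcnc2, another Kv3 gene, had 0.49 ± 0.30 (adjusted p = 0.497).

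The promoter windows of Kcnc1, Kcnc4 and Kcnq5 are shown because these called genes have an entry in the RefSeq table used, and because the first pair are paralogs that moved oppositely. Each window runs 5′ to 3′ on the gene's strand, from 250 bases before to 50 bases after a RefSeq transcript start (GRCm38.p6). CG dinucleotides are in capitals. The Kcnc4 window lies wholly inside the annotated span of its gene (107438303 to 107459552). It is downstream of the annotated start and so is not sequence upstream of that gene.
Kcnc1, chr7:46396218-46396517, plus strand: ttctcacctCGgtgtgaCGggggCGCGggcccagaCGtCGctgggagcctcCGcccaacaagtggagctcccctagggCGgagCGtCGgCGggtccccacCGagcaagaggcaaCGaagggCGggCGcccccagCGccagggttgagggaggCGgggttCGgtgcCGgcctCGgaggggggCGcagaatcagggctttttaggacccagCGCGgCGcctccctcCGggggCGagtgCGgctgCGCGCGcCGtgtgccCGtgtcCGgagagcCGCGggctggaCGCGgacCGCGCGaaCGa
Kcnc4, chr3:107458849-107459148, minus strand: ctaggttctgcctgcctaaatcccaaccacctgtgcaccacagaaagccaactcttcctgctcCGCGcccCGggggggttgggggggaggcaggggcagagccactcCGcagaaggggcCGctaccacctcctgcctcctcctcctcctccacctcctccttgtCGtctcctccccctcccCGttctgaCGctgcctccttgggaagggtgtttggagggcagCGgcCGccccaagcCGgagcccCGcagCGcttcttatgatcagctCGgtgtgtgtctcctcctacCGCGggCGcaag
Kcnq5, chr1:21961893-21962192, minus strand: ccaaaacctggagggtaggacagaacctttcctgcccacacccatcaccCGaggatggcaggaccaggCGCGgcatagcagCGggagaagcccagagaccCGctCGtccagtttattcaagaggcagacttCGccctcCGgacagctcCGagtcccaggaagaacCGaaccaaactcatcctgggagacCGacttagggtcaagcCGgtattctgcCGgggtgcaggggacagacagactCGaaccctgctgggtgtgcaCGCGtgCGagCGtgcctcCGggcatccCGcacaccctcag
They hold 41, 17 and 20 CG; 96.5%, 68.6% and 73.5% of the 32851 promoter windows in the table hold fewer. At least 1 CG, a motif that reads the same on both strands, is found in 94.6% of all windows, whose median is 7, and 57 windows of 43 channel genes had a median of 17. A second Kcnq5 window upstream holds 3. The files give no binding, mark or methylation at these windows.

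In the Kv7 family, which carries the slow M-current that limits repetitive firing, Kcnq5 rose. Kcnq5, on the minus strand of chromosome 1 (21398403 to 21961942), stood at 5.76, 14.9, 16.6, 3.31 and 3.85 CPM in control and at 26.2, 32.8, 29.6, 5.84 and 30.5 CPM in shKdm6b. Library 4 of shKdm6b was far below its group and below 2 control libraries, and the other 4 were above every control library. The log2 fold change was 1.55 ± 0.33 (adjusted p = 0.0121), with pair differences of 0.81 to 2.97. Kcnq3, another Kv7 gene, had -0.18 ± 0.28 (adjusted p = 0.871).

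Among the other potassium channels, 1 rose and 1 fell. Kcna1, a Kv1 channel of axons on the minus strand of chromosome 6 (126640397 to 126646384), stood at 262, 305, 188, 69.2 and 245 CPM in control and at 213, 233, 125, 23.0 and 172 CPM in shKdm6b. Each pair was lower, the groups overlapped, and the pair numbered 4 had the largest difference (-1.58, against -0.59 to -0.30); the log2 fold change was -0.65 ± 0.15 (adjusted p = 0.0155). Its partner Kcna2 had -0.14 ± 0.12 (adjusted p = 0.670). Kcnh3, a Kv12 channel of the ether-a-go-go family on the plus strand of chromosome 15 (99224861 to 99242817), was a gene of low level, at 2.72, 5.04, 1.18, 2.36 and 2.28 CPM in control and 7.82, 7.01, 2.65, 4.32 and 3.39 CPM in shKdm6b. It was higher in 5 of 5 pairs with overlapping groups (0.90 ± 0.21, adjusted p = 0.0195). Its exons overlap those of Mcrs1 on the other strand, which had a control mean of 76.1 CPM and a log2 fold change of 0.19 ± 0.10 (adjusted p = 0.365), and those of Kcnq5 overlap Gm26580. Whether counting used strand is not given in the sources used here, and without it reads of such partners cannot be told apart. Kcnh1, a Kv10 channel, was also higher in 5 of 5 pairs (0.47 ± 0.18, adjusted p = 0.202), and the slow delayed rectifier Kcnb2 had -0.67 ± 0.35 (adjusted p = 0.412).

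**Figure D3:**
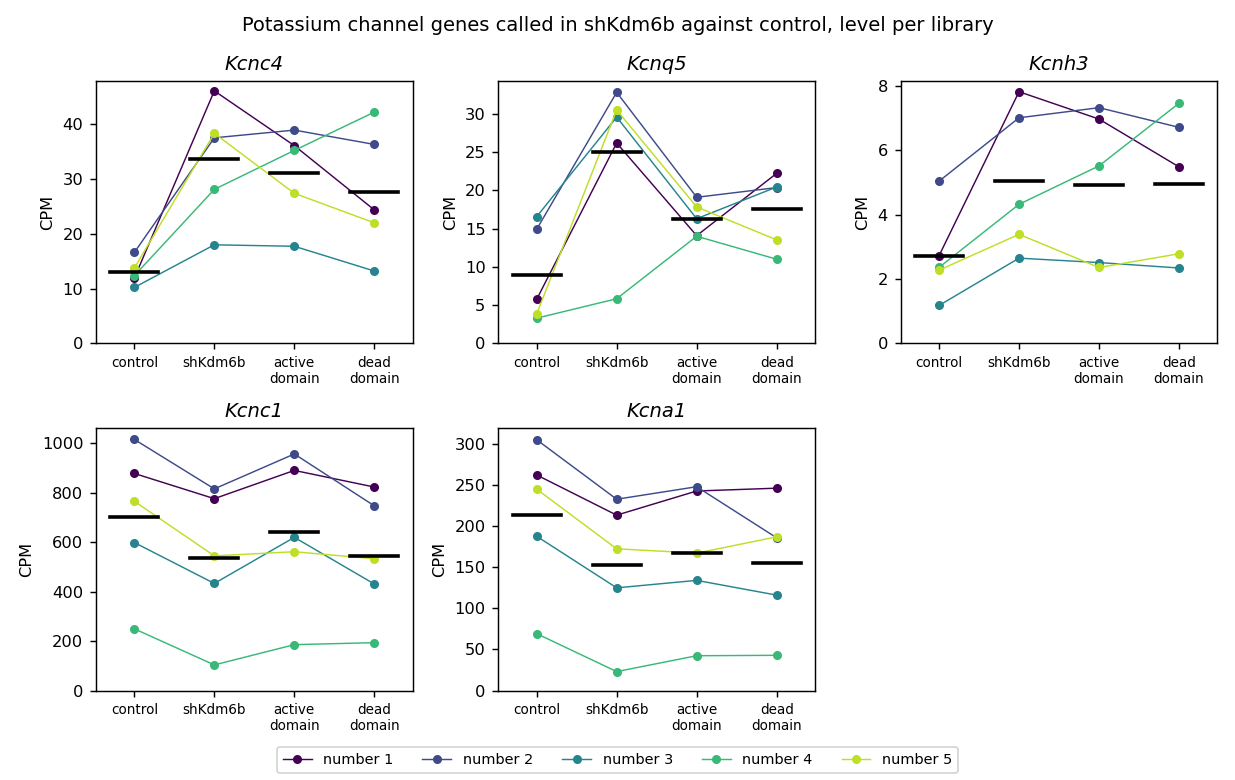
CPM per library of 5 potassium channel genes called in shKdm6b against control, in each of the 4 groups; lines join libraries of the same number, black bars are group means over 5 libraries, and each axis starts at 0. For Kcnc4 all shKdm6b and active domain libraries lie above the highest control library (16.6 CPM), while Kcnc1 and Kcna1 are lowest in number 4 in every group.

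In the pair numbered 4, where Kcna1 and Kcnc1 differed most, the summed granule neuron markers were 3018 CPM in control and 2153 CPM in shKdm6b. Over all pairs 3 of 12 granule neuron markers were called lower (2.41% of all genes) and 1 higher (1.72% of all genes). Their median log2 fold change was -0.22, and the granule neuron sum was lower in 3 of 5 pairs. The summed markers of GABAergic interneurons were lower in shKdm6b in 5 of 5 pairs (242 to 613 CPM in control, 168 to 485 CPM in shKdm6b), as were those of Purkinje cells, a list that shares Gad1 (212 to 496 and 176 to 399 CPM) and of fibroblasts and meninges (3575 to 23838 and 3447 to 18217 CPM). The part of these markers in the falls was not tested. In such bulk RNA fewer cells of a type and less RNA per cell cannot be told apart. Without the 4 libraries numbered 4, where 6.43% of all genes were called, all 6 genes were called and the falls were -0.47 for Kcna1 and -0.39 for Kcnc1, with 5 more called, among them Cacna1i, Cacnb3 and Kcnh1. In libraries numbered 1 to 3 alone (2.89% of all genes called) the 3 rises were called, with Cacna1i, Cacnb1 and Kcnh1 higher as well, and the falls were not (-0.42, adjusted p = 0.0695 for Kcna1 and -0.32, adjusted p = 0.111 for Kcnc1). Of 10 paired fits that each left out 1 library, Kcnc4, Kcnq5 and Kcna1 were called in 10, Kcnh3 in 5 (not without control libraries 1, 3 or 4 or shKdm6b libraries 1 or 5) and Kcnc1 in 4 (not without control libraries 2 to 5 or shKdm6b libraries 3 or 5).

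By edgeR no sodium channel gene was called. The pore genes of highest level had paired log2 fold changes of -0.52 ± 0.20 for Scn2a1, lower in 5 of 5 pairs (adjusted p = 0.207), and -0.17 ± 0.10 for Scn8a (adjusted p = 0.465), both of them channels of the axon initial segment. Scn3a, a sodium channel known from immature neurons, stood at 7.86, 11.8, 6.72, 3.01 and 5.19 CPM in control and at 14.6, 16.3, 8.24, 8.05 and 7.08 CPM in shKdm6b. All 5 pairs were higher and the groups overlapped (0.63 ± 0.25, adjusted p = 0.232). The beta subunit Scn2b had 0.08 ± 0.14, and Scn3b had -0.36 ± 0.12 (adjusted p = 0.108 by edgeR, 0.0492 by DESeq2 with pairing).

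By edgeR over all libraries no calcium channel gene was called in this comparison either, while DESeq2 with pairing called a T-type pore, Cacna1i. Paired edgeR fits did call Cacna1i without the 4 libraries numbered 4 and in numbers 1 to 3 alone. Of those that left out 1 library, they called it without control library 5 and without shKdm6b library 4 only. Cacna1i, which opens at low voltage, lies on the plus strand of chromosome 15 (80287238 to 80398279) and stood at 103, 172, 96.6, 38.9 and 133 CPM in control and at 272, 249, 127, 57.5 and 163 CPM in shKdm6b. All 5 pairs were higher, the groups overlapped, and the log2 fold change was 0.64 ± 0.19 (adjusted p = 0.0691) by edgeR and 0.63 (adjusted p = 0.0221) by DESeq2. Its T-type paralog Cacna1g had -0.23 ± 0.10 (adjusted p = 0.267). Per kilobase Cacna1i was 36.6 to 50.9% of T-type transcripts in control libraries and 51.1 to 65.3% in shKdm6b, which do not overlap. Cacna1a and Cacna1b, the pores of transmitter release, had -0.20 ± 0.11 and -0.23 ± 0.17. The subunits Cacnb4 (-0.59 ± 0.22, adjusted p = 0.168) and Cacna2d2 (-0.30 ± 0.16, adjusted p = 0.397) were lower in 5 of 5 pairs, and so, in 4 of 5, was the pacemaker gene Hcn3 (-0.57 ± 0.19, adjusted p = 0.112). Cacna1e, the R-type pore, was far lower in the libraries numbered 4 than elsewhere: it was 7.08 to 92.3 CPM in the 4 libraries numbered 4 and 169 to 594 CPM in the other 16.

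**Figure D4:**
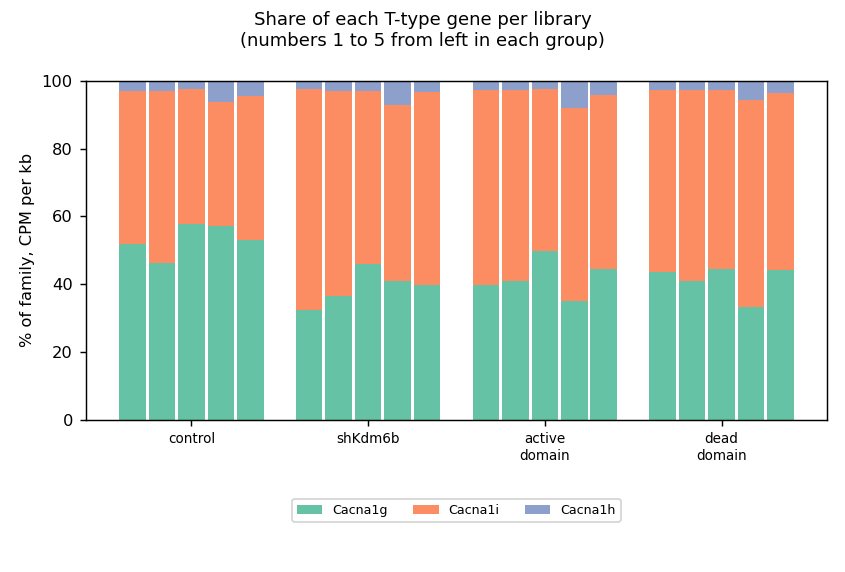
Share of each gene in the T-type (Cav3) family, in percent of the family's CPM per kilobase of exon, 1 bar per library ordered by number within each group. Cacna1i takes larger shares in shKdm6b than in control (at least 51.1% against at most 50.9%), and its shares in both domain groups overlap those in shKdm6b. With the dead domain all shares (52.0 to 61.1%) lie above control, and with the active domain (47.7 to 57.6%) they overlap control.

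By edgeR over all libraries no channel gene was called between a domain group and shKdm6b or between the domain groups. In the paired fit none of 55 passed for the active domain against shKdm6b (0.00654% of all genes), the dead domain against shKdm6b (0% of all genes) or the active against the dead domain (0.00654% of all genes). DESeq2 with pairing called 1, 0 and 0 of 55 in this order (0.15%, 0% and 0.0196% of all genes). Cacna2d2, chosen here after its values were seen, was that gene (0.67 ± 0.16 in edgeR, adjusted p = 0.454). Cacna2d2, a subunit that brings calcium channels to the membrane, stood at 39.9, 40.9, 25.3, 7.497 and 37.8 CPM in shKdm6b and at 66.2, 54.5, 46.5, 20.8 and 35.7 CPM with the active domain. The active domain was higher in 4 of 5 pairs, and against the dead domain in 5 of 5 (0.57 ± 0.16, adjusted p = 0.993).

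Kcnc4 stood at 36.03, 38.9, 17.7, 35.2 and 27.3 CPM with the active domain and at 24.3, 36.2, 13.2, 42.1 and 21.96 CPM with the dead domain. All active domain libraries were above the highest control library, and of the dead domain only number 3 was not. Against shKdm6b the log2 fold changes of Kcnc4 were -0.12 ± 0.18 and -0.32 ± 0.18. Kcnq5 stood at 14.1, 19.1, 16.3, 14.01 and 17.8 CPM with the active domain and at 22.2, 20.4, 20.5, 11.01 and 13.5 CPM with the dead domain. All of these lay between the means of control (8.88 CPM) and shKdm6b (25.0 CPM). By pairs this did not hold throughout. In number 4 both were above shKdm6b (5.84 CPM), and in number 3 the active domain was just below control (16.6 CPM). The log2 fold changes of Kcnq5 against shKdm6b were -0.45 ± 0.32 and -0.41 ± 0.32. Kcnc1 was higher with the active domain than in shKdm6b in 5 of 5 pairs (0.35 ± 0.13, adjusted p = 1.00), and with the dead domain in 2 of 5 (0.15 ± 0.13). For the active domain against shKdm6b all 5 pairs moved the same way in 5.45% of the channel genes and 4.29% of all genes. Over all 55 genes the median log2 fold change of the active against the dead domain was 0.09, against 0.01 over all genes tested.

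Against control, which is shared with the knockdown comparison, 3 of 55 channel genes were called with the active domain (1.96% of all genes), all higher (1.09% of all genes), and 2 of 55 with the dead domain (1.18% of all genes), 1 higher (0.576%) and 1 lower (0.608%). With the active domain these were Kcnc4 (1.22 ± 0.18, adjusted p = 0.00277), Cacna1i (0.81 ± 0.19, adjusted p = 0.0342) and Kcnh3 (0.84 ± 0.21, adjusted p = 0.0489). Of 10 fits that each left out 1 library, Kcnc4 was called in 10 and Cacna1i and Kcnh3 in 2 each, not without control libraries 1 to 4 or active domain libraries 1 to 4. With the dead domain the gene called higher was Kcnc4 (1.02 ± 0.18, adjusted p = 0.0117). Side by side for shKdm6b, active and dead domain against control, Kcnq5 had 1.55, 1.09 and 1.13, Kcna1 -0.65, -0.44 and -0.52, and Kcnc1 -0.53, -0.18 and -0.38. None of Kcnq5, Kcna1 and Kcnc1 passed the test in either domain group, with adjusted p from 0.107 to 0.641. The dead domain call of Kcnc4 was lost without control library 1 and in libraries 1 to 3 alone (0.87, adjusted p = 0.0518).

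Among genes that work with these channels, 10 fell and 1 rose. Of 70 partner genes listed (auxiliary, silent and scaffold subunits and calcium-activated and leak channels), 68 were in the table and 58 were tested; the calls in shKdm6b against control stand beside a median log2 fold change of -0.11 over the 58. Without the libraries numbered 4 the calls were 2 higher and 11 lower (2.62% and 3.81% of all genes), and in libraries numbered 1 to 3 alone 0 higher and 6 lower (1.47% and 1.42% of all genes: Amigo1, Fgf13, Kcnab1, Kcnip2, Kcnip3 and Lgi1). With all libraries 1.72% of all genes were called higher and 2.41% lower, and the part of the granule neuron and GABAergic interneuron markers given above was not tested. For the Kv4 channels of the A-current the calcium sensors Kcnip2 (-1.76 ± 0.23, adjusted p = 0.000379), Kcnip4 (-1.62 ± 0.35, adjusted p = 0.0133) and Kcnip3 (-0.67 ± 0.13, adjusted p = 0.00491) fell. Kcnip2 ran from 6.19 to 27.7 CPM in control, with a median of 12.3, and from 1.47 to 6.48 CPM in shKdm6b, with a median of 3.06, so that the groups overlapped slightly.

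For the Kv1 channels the beta subunits Kcnab1 and Kcnab2 fell. Kcnab1 stood at 41.2, 65.4, 43.3, 15.9 and 51.4 CPM in control and at 16.3, 35.6, 24.5, 5.01 and 33.4 CPM in shKdm6b, lower in 5 of 5 pairs (-1.05 ± 0.17, adjusted p = 0.00179), and Kcnab2 had -0.49 ± 0.10 (adjusted p = 0.0101). Lgi1, a secreted protein that binds the Kv1 complex, fell by 0.59 on the log2 scale (adjusted p = 0.00601), and Amigo1, a subunit of Kv2 channels, by 0.49 (adjusted p = 0.00527). Of the intracellular FGFs, which bind sodium channels, Fgf14 (-0.85 ± 0.19, adjusted p = 0.0169), Fgf12 (-0.62 ± 0.14, adjusted p = 0.0178) and Fgf13 (-0.55 ± 0.10, adjusted p = 0.00552) fell, while Fgf11 had -0.28 ± 0.28 (adjusted p = 0.748); Fgf12 and Fgf11 were named after their values were seen. The single rise was Kcnmb2, a beta subunit of BK channels, from 0.787 ± 0.472 to 2.13 ± 0.688 CPM (SD, n = 5 each), at 1.497 ± 0.31 (adjusted p = 0.00961, edgeR).

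Against control 1 partner gene was called higher and 4 lower with the active domain (1.09% and 0.87% of all genes), and none higher and 3 lower with the dead domain (0.576% and 0.608%). Kcnip2 and Kcnab1 were called lower in both, at -1.45 ± 0.23 and -1.01 ± 0.17 with the active and at -1.23 ± 0.22 and -0.76 ± 0.17 with the dead domain (adjusted p from 0.00297 to 0.0385). With 1 library left out in turn, both were called in 10 of 10 fits with the active domain, and Kcnip2 in 9 (not without dead domain library 2) and Kcnab1 in 2 with the dead domain (not without control libraries 1 to 4 or dead domain libraries 2 to 5). Kcnip1 was the single gene of all tested that edgeR called for the active domain against shKdm6b, at 1.86 ± 0.24 (adjusted p = 0.0115), and had 1.67 ± 0.24 against the dead domain (adjusted p = 0.0411). Its mean was 1.48 ± 0.749 CPM in shKdm6b, 6.07 ± 4.71 CPM with the active domain and 1.71 ± 0.956 CPM with the dead domain (SD, n = 5 each), higher in 5 of 5 pairs in both comparisons. With 1 library left out in turn it was called against shKdm6b in 5 of 10 fits (not without shKdm6b libraries 1 to 3 or active domain libraries 1 or 2, adjusted p up to 0.147). Against the dead domain it was called in 2 of 10 (not without active domain libraries 1 to 3 or any 1 dead domain library, adjusted p up to 0.519), and not without the libraries numbered 4 (adjusted p = 0.0673). DESeq2 with pairing called 23 genes for the active domain against shKdm6b, and edgeR called 18 in libraries numbered 1 to 3 alone, Kcnip1 among both.

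**Figure D5:**
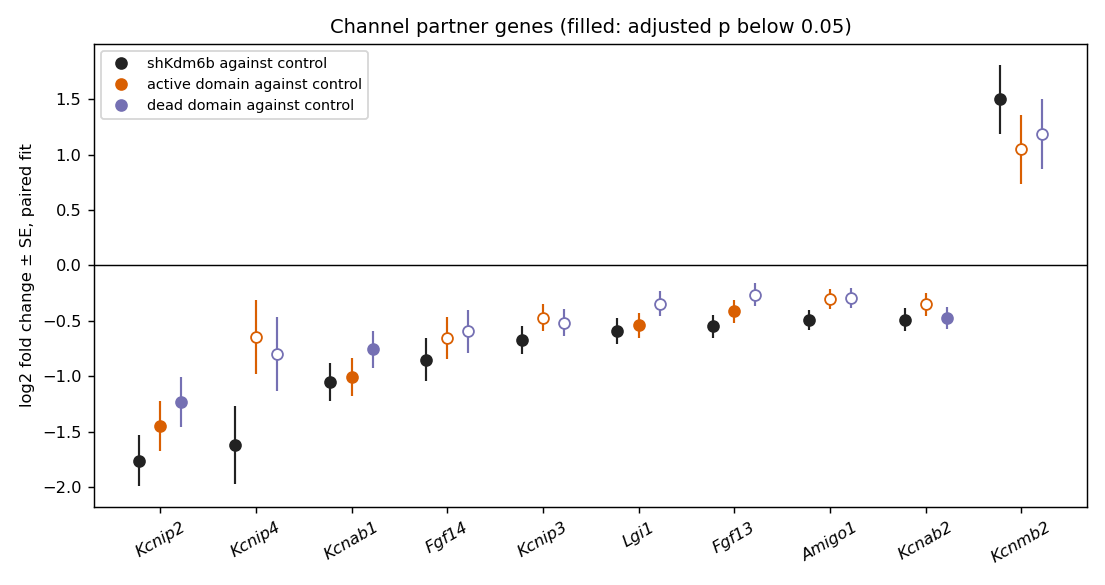
Log2 fold change with SE against control in the paired fit for 10 channel partner genes, in shKdm6b (black), with the active domain (orange) and with the dead domain (purple); filled points passed an adjusted p of 0.05. All 10 are filled in shKdm6b, 9 below 0 and Kcnmb2 above, and Kcnip2 and Kcnab1 are filled in all 3 comparisons.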

How the data were processed

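Gene expression was measured by RNA sequencing of 20 libraries of mouse cerebellar granule neuron cultures, with RNA taken by an RNAqueous Micro Kit per the labels' protocols. The authors deposited 1 table of estimated counts per gene, merged from salmon per the table's name, on the build mm10 per the submitters' processing notes; no source used here gives the salmon version, annotation or strandedness. All columns were matched to samples by name, with 0 left over.

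Counts were rounded, filtered with filterByExpr (9127 genes removed), scaled with TMM and tested with edgeR 4.0.16 (R 4.3.3, quasi-likelihood, robust, two-sided, all 20 libraries in 1 fit, Benjamini-Hochberg, threshold 0.05). The script was tested on simulated data. The design as first written had no pairing. Replicate numbers 1 to 5 recur in each group, and all 30 same-numbered pairs deviated together (r 0.361 to 0.881, where 0.1 was asked of each) with 20 of 20 libraries closest to their own number, so values are given from the fit with the number as a block. What the number marks is not in the labels. Log2 CPM for the exact permutation tests used a prior count of 1.

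Levels between genes are CPM per kilobase of the union of GENCODE exons (GRCm38, the same build as mm10), and promoter windows are from RefSeq. Named genes were those called in any comparison, the 2 highest per class in control, the 5 largest differences in each direction with a mean of at least 1 CPM, Kdm6b and up to 10 partner genes; some channel genes under this rule are counted and not reported here by name. Other genes with values (Cacna1e, Cacna1g, Cacna2d2, Cacnb1, Scn3b, Kcnc2, Kcnq3, Kcnh7, Scn9a, Kcna3, Kcnip1, Fgf11, Fgf12, Mcrs1 and the untested channel genes) were named after their values were seen. The channel genes, lists and rules were chosen with earlier results of these data known. Alternatives were normalization, filter, DESeq2 1.42.0, subsets of libraries and leaving out each library.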

Additional observations from a re-analysis of the deposited data

Results flagged for a closer look

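In 22 channel genes and 4 groups, 4 of 88 combinations held a library whose gap to the others exceeded Dixon's critical value of 0.71 of the group's range for 5 libraries; chance flags about 1 in 20 groups. Kcnq5 was at 5.84 CPM in shKdm6b library 4, with the nearest of its group at 26.2 CPM. Scn2b was at 152.6 CPM in shKdm6b library 5 (nearest 82.8 CPM) and at 122 CPM in dead domain library 5 (nearest 82.2 CPM). In the other groups Scn2b was also highest in library 5, at 126.6 CPM in control and 123.9 CPM with the active domain. Kcnh2, a Kv11 potassium channel, was at 14.6 CPM in active domain library 5, with the nearest at 9.70 CPM. Library 5 was also its highest in control (15.7 CPM) and with the dead domain (13.8 CPM). In shKdm6b library 5, at 12.84 CPM, was just below library 1 at 12.85 CPM. Of the 4, 1 came from a library numbered 4 and 3 from libraries numbered 5.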

How the results depend on the processing

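Without pairing the count of called channel genes was 0 in each comparison, and with the replicate block it was 6 in shKdm6b against control, 3 with the active domain against control and 2 with the dead domain against control, the other comparisons staying at 0. The block with another normalization (RLE) or with no low-count filter, both chosen after seeing the data, gave 6, 2 and 2. In both, Kcnh3 was lost for the active domain against control. The block without the 4 libraries numbered 4 gave 11, 7 and 4 while calls over all genes went from 632, 299 and 181 to 983, 699 and 380, and libraries numbered 1 to 3 alone gave 6, 6 and 1 (442, 456 and 147 over all genes), plus 1 (Cacna2d2) for the active domain against shKdm6b and 1 against the dead domain. DESeq2 with the block gave 9, 6 and 5 (944, 623 and 455 over all genes), plus 1 for the active domain against shKdm6b; without pairing it gave 1, 1 and 0. Over fits leaving out 1 library the counts ran from 0 to 8, 0 to 4 and 0 to 2, the 0 of the first and second coming from the fits without pairing; with the block they ran from 4 to 8, 1 to 4 and 0 to 2. Over the same fits the Kdm6b difference ran from -1.02 to -0.57 on the log2 scale. Its exact permutation p was above 0.05 (0.0556 to 0.0794) without control libraries 1, 2, 3 or 5 or shKdm6b libraries 4 or 5. The Kcnc4 call with pairing was kept in each alternative with the block for shKdm6b and the active domain against control.

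Among the named genes, signs turned only for differences that no edgeR fit called. For the dead domain against shKdm6b, without number 4 Kcna1 and Kcnc1 were -0.012 each, and in numbers 1 to 3 they were -0.065 and -0.013. For the active against the dead domain Kcnh3 was 0.11 without number 4 and 0.19 in numbers 1 to 3. Leaving out 1 library, the dead domain against shKdm6b ran from -0.25 to 0.26 for Kcna1, -0.23 to 0.245 for Kcnc1, -0.23 to 0.19 for Kcnh3 and -0.45 to 0.075 for Cacna1i. The active domain against shKdm6b ran from -0.27 to 0.034 for Kcnc4, -0.21 to 0.19 for Kcnh3, -0.16 to 0.34 for Cacna1i and -0.15 to 0.36 for Kcna1. The active against the dead domain ran from -0.14 to 0.34 for Kcna1, -0.33 to 0.10 for Kcnq5, -0.19 to 0.19 for Kcnh3 and -0.0067 to 0.41 for Kcnc4, and Kcnc1 ran from -0.36 to 0.10 for the active domain against control. The cause was not tested. Genes under about 1 CPM, such as Kcnh7 and Scn9a, had wide errors at this depth.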
